A study of Arabidopsis thaliana with 9 samples.

Results

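The high-numbered microRNA precursors of Arabidopsis thaliana are the loci whose probes on a custom array are named ath-MIR with a number of 400 or more, without MIR408, MIR827 and MIR828, which belong to older families. This rule gave 77 precursors with 167 probes, out of 5077 genes on the array, and 96 other microRNA precursors were on the same array. The number of a microRNA gives the order of its naming and is only a loose guide to age: most members are known from Arabidopsis and its close relatives alone, but miR403 and miR2111 also occur in other flowering plants. The brightest probe by mean over 9 arrays stood for each precursor, and 20 members had 1 probe, 24 had 2 and 33 had 3.

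The study measured total RNA of 3 organs of wild-type plants with 3 biological replicates per organ, 1 array each, on a 1-colour Agilent array built for long intergenic non-coding RNAs. Inflorescences were taken from plants 4 weeks old and carried open flowers, unopened buds and some siliques at a very early stage; these plants were kept on solid Murashige-Skoog medium or in a greenhouse. Roots and leaves were taken from hydroponic plants in MGRL medium at an age of 30 days. The growth protocols name Col-0 as the ecotype, whereas the ecotype entry of each sample carries its own running number and was not used. Light lasted 16 h and darkness 8 h at 22 °C for all, so that a difference between inflorescence and root or leaf is also one of age and culture, which cannot be told apart from organ.

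A microRNA gene is transcribed by RNA polymerase II into a long primary transcript that folds into a hairpin, and DICER-LIKE 1 cuts the mature microRNA out of it. The mature microRNA then guides an ARGONAUTE protein to matching messenger RNAs. Young microRNA genes are known for low levels, hairpins often cut imprecisely or by DICER-LIKE 4, expression restricted to few tissues, and few established targets. Amplified cRNA of total RNA was hybridised here, so that the signals are of longer transcripts that carry the precursor and are no measure of the mature microRNA. Sequences of the probes and hairpins were not used here. The array files name an earlier release of the genome than that of the RefSeq table, TAIR10.1, so that no coordinates are given, and that table served only for names, overlaps and neighbours of the 76 members it matched (all but MIR783).

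All signals below are scaled log2 signals: the log2 of the processed intensity minus the 75th percentile of its array over 1345 probes well above background on all 9 arrays. A value of 0 thus lies at that percentile, and a difference of 1 is 2-fold. Because probes bind with different strength, levels of different probes are not comparable, and only differences between organs at the same probe are read. Leaf replicate 2 stood apart, with 10.6% of all probes well above background against 24.1% to 39.9% on the other arrays. On that array the 17 members never detected had a median of -6.18, against -8.81 to -9.47 elsewhere, and the lowest signal well above background was -4.05, against -6.81 to -7.62. The arrays of replicates 1 and 2 shared 1 slide across organs, and those of replicate 3 another. Values without leaf replicate 2 are given for several results below, and others may also depend on it. None of the 13 organ marker genes listed for a check of the labels (5 of inflorescence, 4 of root and 4 of leaf) was on the array, so that the organs were not checked against markers.

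Of the 77 high-numbered precursors 35 (45.5%) were detected on all 3 arrays of no organ, beside 58.2% of all genes and 25% of the other precursors. The scanner software's flag for a spot well above background was set on all 3 arrays for 34 of 77 members in inflorescence (44.2%), 29 in root (37.7%) and 18 in leaf (23.4%). Without leaf replicate 2 the leaf count was 36, and the count of 18 rests on that array. Single arrays detected 46, 41 and 34 members in inflorescence, 35, 40 and 33 in root, and 42, 19 and 38 in leaf. Of the 96 other precursors, 54, 58 and 27 were detected on all 3 arrays of inflorescence, root and leaf. Of all 5077 genes these counts were 1726, 1845 and 754. Per array, 44.2% to 59.7% of the high-numbered members and 61.5% to 74.0% of the other precursors were detected in inflorescence.

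**Figure D1:**
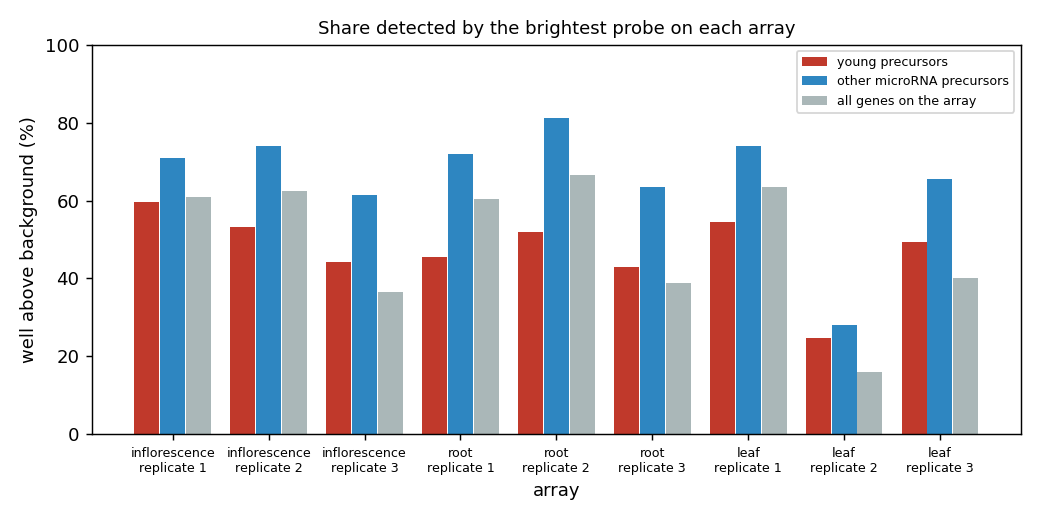
Percent of high-numbered (young) precursors, other microRNA precursors and all genes whose brightest probe was well above background, for each of the 9 arrays. On every array the high-numbered precursors lie below the other precursors, and leaf replicate 2 has the lowest bars of all 3 classes, at 24.7%, 28.1% and 16.1%.

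The 77 members fall into classes by the organs in which all 3 arrays detected them. Signal in all 3 organs was present for 11 members (14.3%, beside 13.3% of all genes). It was present in inflorescence and root for 13 (16.9%, beside 15.5%). Inflorescence and leaf detected 3 (3.9%, beside 0.69%), and root and leaf 1 (1.3%, beside 0.49%). Leaf replicate 2 bears on the first 2 classes. Without it 23 members were detected on all 8 other arrays (29.9%, beside 26.5% of all genes). A single organ detected 7 members in inflorescence (9.1%, beside 4.5% of all genes), 4 in root (5.2%, beside 7.0%) and 3 in leaf (3.9%, beside 0.35%). The remaining 35 passed in no organ. Of these, 18 were detected on at least 1 array, and 17 by no probe on any array: MIR406, MIR417, MIR426, MIR774, MIR777, MIR778, MIR831, MIR837, MIR845a, MIR856, MIR859, MIR866, MIR870, MIR1886, MIR1888, MIR2111a and MIR2111b. Among the other precursors 7 of 96 were detected by no probe, and among all genes 677 of 5077. Members with more probes passed more often, 6 of 20 with 1 probe, 13 of 24 with 2 and 23 of 33 with 3. No detection on these arrays does not show that a precursor was not transcribed.

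Organ differences were tested with limma on all genes that all 3 arrays of at least 1 organ detected, 2124 genes with 42 of the 77 members. A difference was called at a Benjamini-Hochberg adjusted p under 0.05 and at least 2-fold. Of the 42 members, 14 passed the filter through 1 organ alone, and 7 of these were called. They were MIR771, MIR776, MIR780, MIR783 and MIR826 through inflorescence, and MIR847 and MIR863 through leaf. Because such a member had to be high in the organ that let it pass, the counts of called members describe these 42 and not all 77. For the same reason the adjusted p of such a member is no independent support for a call in favour of that organ.

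In root against leaf, 16 members were called, with a background of 23.8% of all genes tested. Of these 7 were higher in root (13.7% of all genes) and 9 lower in root than in leaf (10.2%). In inflorescence against leaf, 14 members were called, against 17.8% of all genes, with 5 higher in inflorescence (8.43%) and 9 lower in inflorescence (9.37%). In inflorescence against root, 19 members were called, against 24.2% of all genes, with 11 higher in inflorescence (10.6%) and 8 lower in inflorescence (13.6%). The comparisons share arrays and are not independent of each other. The median log2 difference of the 42 members was -0.48 in root against leaf, -0.11 in inflorescence against leaf and 0.19 in inflorescence against root, beside 0.05, -0.20 and -0.26 over all genes tested. Of 72 other precursors tested, 23, 21 and 27 were called in the same order of comparisons. Scaling by the median of each array moved the median of all genes to 0.77, 0.42 and -0.36 and the median of the members to 0.25, 0.51 and 0.09. That scaling gave 9 higher and 6 lower in root against leaf, 5 and 5 in inflorescence against leaf and 8 and 5 in inflorescence against root.

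In all, 24 members were called in at least 1 comparison, beside 35.1% of all genes tested, and 5 in all 3 (MIR415, MIR823, MIR825, MIR833 and MIR841), beside 4.9% of all genes. The other 18 were called in none. Of these, MIR832, MIR849 and MIR869 were called in root against leaf with either the replicate number or the slide as a block (-1.55, -2.67 and 2.53), and the blocks also called MIR849 in inflorescence against leaf (-2.40) and MIR869 in inflorescence against root (-2.96). Higher than in both other organs were 5 members in inflorescence (MIR776, MIR780, MIR826, MIR833 and MIR839), 6 in root (MIR403, MIR415, MIR775, MIR822, MIR824 and MIR848) and 7 in leaf (MIR823, MIR825, MIR841, MIR846, MIR847, MIR850 and MIR863). Among these, MIR776, MIR780, MIR826, MIR847 and MIR863 had passed the filter only through the organ in which they were highest. Lower than in both others were 3 members in inflorescence (MIR404, MIR415 and MIR841), 4 in root (MIR783, MIR823, MIR825 and MIR833) and 0 in leaf. The 0 in leaf depends on processing. Without leaf replicate 2 MIR839 was also called in root against leaf and so was lower in leaf than in both others. This also held with array medians, the 75th percentile of all probes and quantile normalization. In 19 of the 49 called differences the dimmer organ was detected on none of its arrays. There the fold is a bound: the mean of the brighter organ was set against, on each array of the dimmer organ, the higher of the probe's own signal and the lowest signal well above background. For MIR783 in root against leaf the brighter organ was itself detected on only 1 array, so that its bound is not firm. In all 49 the arrays of the compared organs did not overlap, so that their sign on each slide alone was fixed in advance. On the slide of replicate 3, with 1 array per organ, 48 were at least 2-fold. Those arrays were also part of the tests that gave the calls. After normexp background correction of the unprocessed signals, 12 of the 49 were still called, those of MIR404, MIR822, MIR841, MIR846, MIR850 and MIR863 in part or in full and all 3 of MIR415. No member was then called higher in inflorescence than in leaf or than in root.

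**Figure D2:**
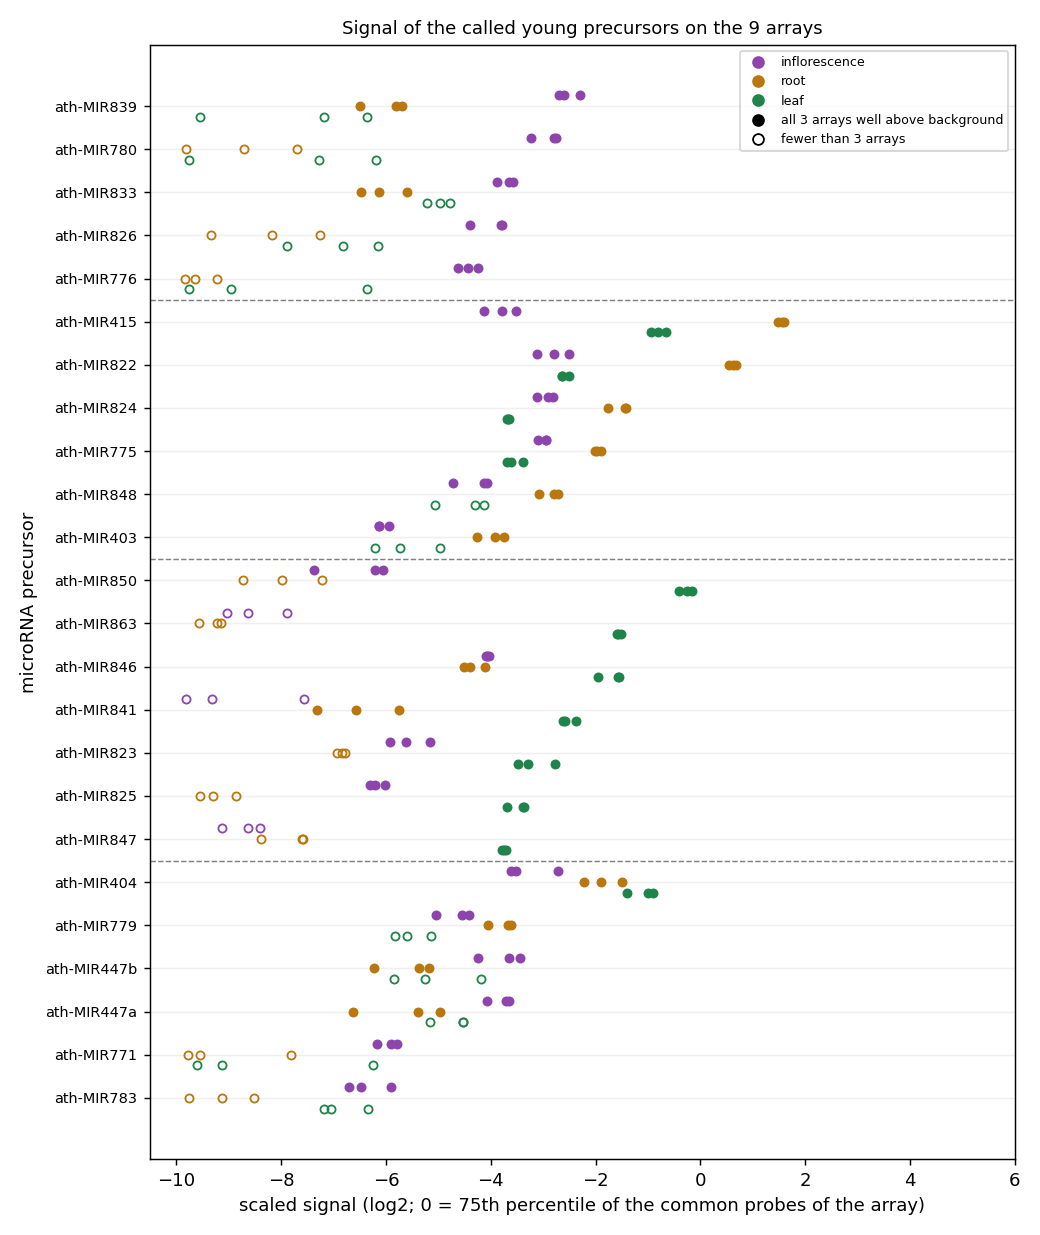
Scaled log2 signal of the 24 called high-numbered precursors on the 9 arrays (brightest probe; 1 point per array; filled where all 3 arrays of the organ were well above background). Dashed lines separate, from top, the 5 members highest in inflorescence, the 6 highest in root, the 7 highest in leaf and the 6 others, and in the first 3 blocks the points of the named organ lie right of the others; positions are comparable only along a row.

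Among members whose microRNAs are known to act on silencing factors, MIR863 stood out by organ. The microRNA miR863 targets SERRATE, a partner of DICER-LIKE 1. Its scaled signals were -9.04, -7.89 and -8.64 in inflorescence, -9.16, -9.56 and -9.22 in root, and -1.59, -1.51 and -1.58 in leaf. Only the leaf arrays were well above background, and they lay far above all others. The precursor was lower in inflorescence than in leaf by at least 49.99-fold (log2 difference -6.97 ± 0.29 SE, adjusted p = 3.97e-06) and lower in root than in leaf by at least 52.2-fold (-7.76 ± 0.29, adjusted p = 8.49e-07). Its probe 2, detected on 2 leaf arrays and on no other array, had differences of -4.15 and -3.87, and its probe 3 was detected on no array, so that these sizes rest on 1 of 3 probes.

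MIR850 lies next to MIR863 and was likewise highest in leaf. Its signals were -6.07, -6.21 and -7.37 in inflorescence, -7.98, -7.23 and -8.72 in root, and -0.26, -0.40 and -0.15 in leaf. Inflorescence was well above background on 3 of 3 arrays, root on 0. The inflorescence level was 77.7-fold below that of leaf (-6.28 ± 0.46, adjusted p = 5.45e-05), and root was lower than leaf by at least 124-fold (-7.70 ± 0.46, adjusted p = 9.82e-06). Both precursors overlap the annotated non-coding RNA AT4G13495, which had 6 probes of its own on the array. At its brightest probe AT4G13495 averaged -1.30 ± 0.23 in inflorescence, -2.80 ± 0.19 in root and 5.17 ± 0.16 in leaf (SD, n = 3 each). It differed by -6.47 ± 0.19 in inflorescence against leaf and by -7.97 ± 0.19 in root against leaf. Signals of the precursors and of the overlapping transcript cannot be told apart here.

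MIR823, whose microRNA targets the DNA methyltransferase CMT3, was called in all 3 comparisons. Its signals were -5.63, -5.92 and -5.16 in inflorescence, -6.94, -6.83 and -6.79 in root, and -3.49, -3.28 and -2.77 in leaf. The organs did not overlap, with leaf highest and root lowest. The difference was -2.39 ± 0.26 in inflorescence against leaf (adjusted p = 0.00042), -3.67 ± 0.26 in root against leaf (adjusted p = 2.64e-05) and 1.28 ± 0.26 in inflorescence against root (adjusted p = 0.00756). The last of these was lost without inflorescence replicate 3 (1.08, adjusted p = 0.0518) and after quantile normalization (1.13, adjusted p = 0.204). With the 75th percentile of all probes or with array medians MIR823 was called neither in inflorescence against root (1.40 and 1.18, adjusted p = 0.307 and 0.414) nor in inflorescence against leaf (-2.16 and -1.77, adjusted p = 0.120 and 0.145). Its other probe was detected on 0 of 3 inflorescence arrays, 1 root array and 1 leaf array, and differed by -0.34 in inflorescence against root.

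MIR403 gives the microRNA that targets AGO2, the ARGONAUTE known for antiviral defence. The precursor had -5.95, -6.13 and -6.13 in inflorescence, -3.76, -3.93 and -4.25 in root, and -5.74, -4.96 and -6.21 in leaf. Root arrays lay above the arrays of both other organs, which overlapped each other. Inflorescence was lower than root by 4.26-fold (-2.09 ± 0.32, adjusted p = 0.00171), and root was higher than leaf by 3.15-fold (1.66 ± 0.32, adjusted p = 0.00531). After normexp correction root against leaf was -0.33 (adjusted p = 0.663), with the sign reversed. The other probe gave differences of -2.00 and 2.07. AGO2 itself was on the array and differed by -0.21 ± 0.15 in inflorescence against root (adjusted p = 0.39) and by 0.65 ± 0.15 in root against leaf (adjusted p = 0.0116), under the 2-fold threshold in both.

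MIR773, whose microRNA targets the DNA methyltransferase gene MET2, passed only through root, where it averaged -6.31 ± 0.66 (SD, n = 3). It averaged -6.47 ± 1.09 in inflorescence and -6.93 ± 1.16 in leaf and was called in no comparison. MIR778, whose microRNA targets histone methyltransferases of the SUVH family, was detected on no array. MIR838 lies within DCL1, the gene of DICER-LIKE 1, and its brightest probe was well above background on 1 of 9 arrays. DCL1 was well above background on all 9 arrays, with means of 1.79 ± 0.05 in inflorescence, 2.07 ± 0.06 in root and 1.18 ± 0.17 in leaf.

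DICER-LIKE 4 is known to process the precursors of miR822 and miR839, which fold into long hairpins. MIR822, whose microRNA targets genes of DC1-domain proteins, had -2.51, -2.80 and -3.11 in inflorescence, 0.62, 0.67 and 0.55 in root, and -2.51, -2.64 and -2.65 in leaf. Root stood apart, while inflorescence and leaf overlapped. Inflorescence was 10.7-fold lower than root (-3.42 ± 0.19, adjusted p = 6.54e-06), and root was 9.29-fold higher than leaf (3.22 ± 0.19, adjusted p = 8.54e-06). The difference between inflorescence and leaf was -0.21 ± 0.19. All 3 probes of MIR822 gave the same order of root over both other organs, with differences in root against leaf of 3.22, 3.68 and 3.61.

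MIR839 followed another course. Its signals were -2.30, -2.59 and -2.69 in inflorescence, -5.82, -5.70 and -6.50 in root, and -7.18, -6.37 and -9.55 in leaf. Inflorescence lay above all other arrays, and no leaf array was well above background. Inflorescence was higher than leaf by at least 12.2-fold (5.17 ± 0.74, adjusted p = 0.00163), and by at least 25.1-fold without leaf replicate 2. It was 11.1-fold higher than root (3.48 ± 0.74, adjusted p = 0.0091), a call that was lost without root replicate 3 (3.23, adjusted p = 0.0604). The difference in root against leaf was not called (1.69 ± 0.74, adjusted p = 0.143, at least 1.09-fold). Without leaf replicate 2 it was called, at least 2.25-fold. Both other probes had differences of 4.26 and 4.46 in inflorescence against leaf. Neither call of MIR839 held after normexp correction. DCL4, the gene of the processing enzyme, differed by 0.52 ± 0.14 in inflorescence against leaf and by -0.12 ± 0.14 in inflorescence against root. Neither difference of DCL4 reached 2-fold, and its partner gene DRB4 differed by 0.48 ± 0.14 and 0.07 ± 0.14.

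Precursors whose microRNAs act on regulators of development included MIR824, MIR847 and MIR858. MIR824, known to target the MADS-box gene AGL16, which acts in stomatal development and flowering, had -2.91, -2.81 and -3.11 in inflorescence, -1.45, -1.42 and -1.76 in root, and -3.70, -3.65 and -3.67 in leaf. The 3 organs did not overlap, and root was highest. Root was 4.38-fold higher than leaf (2.13 ± 0.17, adjusted p = 4.06e-05), and inflorescence was 2.64-fold lower than root (-1.40 ± 0.17, adjusted p = 0.000461). The call against root was lost with the 75th percentile of all probes (-1.28, adjusted p = 0.198) and with array medians (-1.51, adjusted p = 0.207).

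MIR847, whose microRNA targets the auxin repressor IAA28, had -9.13, -8.41 and -8.63 in inflorescence, -8.39, -7.58 and -7.60 in root, and -3.75, -3.79 and -3.70 in leaf. The leaf arrays lay within 0.09 of each other, and no array of the other organs was well above background. It was lower in inflorescence than in leaf by at least 10.9-fold (-4.98 ± 0.28, adjusted p = 1.56e-05) and lower in root than in leaf by at least 11.4-fold (-4.11 ± 0.28, adjusted p = 2.17e-05). All 3 probes had this direction, with root against leaf differences of -4.11, -5.30 and -4.45. Neither call of MIR847 held after normexp correction or with all lower signals raised to a common floor. MIR858, whose microRNA targets MYB genes of flavonoid synthesis, averaged -5.72 ± 1.02 in inflorescence, -6.29 ± 1.15 in root and -5.82 ± 0.94 in leaf (SD, n = 3 each) and was called in no comparison.

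Among precursors tied to metabolism and transport, MIR780 and MIR826 were detected in inflorescence alone. The microRNA miR780 targets CHX18, a gene of a cation/proton exchanger family. MIR780 had -2.80, -2.75 and -3.23 in inflorescence, -8.71, -7.70 and -9.82 in root, and -7.28, -6.20 and -9.75 in leaf. Every inflorescence array lay above every array of the other organs, none of which was well above background. Inflorescence was higher than leaf by at least 9.21-fold (4.82 ± 0.91, adjusted p = 0.00647), or at least 19.0-fold without leaf replicate 2, and higher than root by at least 20.2-fold (5.81 ± 0.91, adjusted p = 0.00195). The other probe of MIR780 differed by 4.99 and 6.11 in these comparisons. Neither call of MIR780 held after normexp correction.

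MIR826, whose microRNA targets AOP2, an enzyme of glucosinolate synthesis, had -3.78, -3.81 and -4.39 in inflorescence, -8.18, -7.27 and -9.34 in root, and -6.81, -6.15 and -7.89 in leaf. Inflorescence was again above all other arrays. It exceeded leaf by at least 4.34-fold (2.95 ± 0.61, adjusted p = 0.00996), or at least 8.88-fold without leaf replicate 2, and root by at least 9.48-fold (4.27 ± 0.61, adjusted p = 0.00123). Neither call of MIR826 held after normexp correction or with all lower signals raised to a common floor. The non-coding RNA AT4G03038 overlaps MIR826 and had another order of organs. Its means were -2.18 ± 0.08 in inflorescence, -5.22 ± 0.15 in root and -0.08 ± 0.11 in leaf (SD, n = 3 each), so that it was lower in inflorescence than in leaf (-2.10 ± 0.16, adjusted p = 5.9e-05). The signs in inflorescence against leaf were thus opposite at the overlapping loci, and the 2 probes of MIR826 both gave a positive one (2.95 and 3.04).

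**Figure D3:**
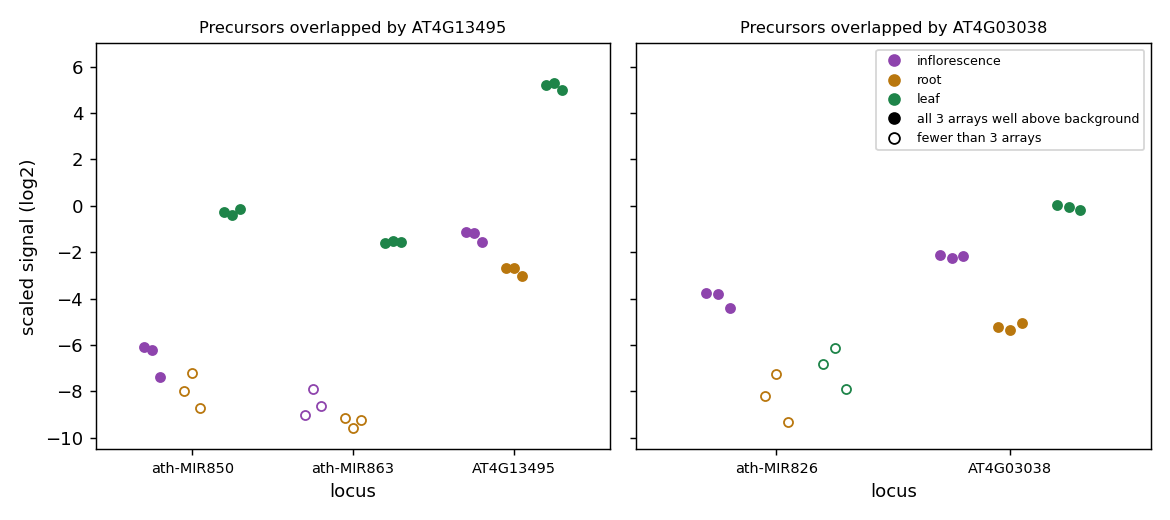
Scaled log2 signal on the 9 arrays of MIR850, MIR863 and the non-coding RNA AT4G13495 that overlaps both (left panel), and of MIR826 and the non-coding RNA AT4G03038 that overlaps it (right panel), 1 point per array, filled where all 3 arrays of the organ were well above background. In the left panel leaf is highest at all 3 loci; in the right panel inflorescence is highest at MIR826 and leaf at AT4G03038.

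MIR775, whose microRNA targets a gene of a galactosyltransferase, had -2.94, -2.95 and -3.09 in inflorescence, -1.89, -1.97 and -2.02 in root, and -3.62, -3.39 and -3.70 in leaf. The 3 organs did not overlap. Root was 3.05-fold higher than leaf (1.61 ± 0.15, adjusted p = 0.000119), and inflorescence was 2.05-fold lower than root (-1.04 ± 0.15, adjusted p = 0.00145). The difference of inflorescence against root was close to the 2-fold threshold, and without inflorescence replicate 3 it was -0.99. It was not called with the 75th percentile of all probes (-0.92, adjusted p = 0.431) or with array medians (-1.14, adjusted p = 0.441). Root against leaf was not called with the 75th percentile of all probes (1.72, adjusted p = 0.0789).

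MIR447a and MIR447b, whose microRNA targets a gene of 2-phosphoglycerate kinase, are near-identical precursors of 1 family, so that their probes may share signal. MIR447a averaged -3.81 ± 0.22 in inflorescence, -5.67 ± 0.86 in root and -4.74 ± 0.37 in leaf (SD, n = 3 each). MIR447b averaged -3.78 ± 0.42, -5.59 ± 0.55 and -5.09 ± 0.84 in the same organs. Inflorescence was higher than root for both, by 3.62-fold (1.86 ± 0.43, adjusted p = 0.0129) and 3.51-fold (1.81 ± 0.48, adjusted p = 0.0239). The call of MIR447a was lost without inflorescence replicate 3 (1.98, adjusted p = 0.0501), and that of MIR447b without any of inflorescence replicates 1, 2 and 3 or root replicates 1 and 3 (1.497 to 2.05, adjusted p = 0.0551 to 0.132). Neither was called with array medians (adjusted p = 0.113 for MIR447a and 0.128 for MIR447b). MIR447c, the remaining member of the family, passed in no organ. MIR857, whose microRNA targets the laccase gene LAC7, was well above background on 2 of 3 root arrays and on none of the other organs. MIR2111a and MIR2111b, whose microRNA targets an F-box gene and is known to rise under phosphate starvation, were detected on no array.

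MIR842 and MIR846 are neighbours whose microRNAs target jacalin lectin genes, and both are known to come from 1 primary transcript that is spliced in several ways. The brightest probe of MIR846 had -4.09, -4.07 and -4.04 in inflorescence, -4.10, -4.40 and -4.52 in root, and -1.58, -1.95 and -1.56 in leaf. Leaf lay above the other organs, by 5.18-fold over inflorescence (inflorescence against leaf -2.37 ± 0.18, adjusted p = 7.22e-05) and by 6.26-fold over root (root against leaf -2.65 ± 0.18, adjusted p = 2.24e-05). Its other probes ran the opposite way. Probe 2 had -9.01, -7.53 and -9.89 in inflorescence, -4.50, -4.65 and -5.14 in root, and -8.79, -6.24 and -9.62 in leaf, and was well above background in root alone. Probe 3 was also detected on all 3 root arrays and on no other array. In root against leaf these probes differed by 3.45 and 2.48, so that the mean of all 3 probes gave 1.097 (adjusted p = 0.241), with the sign reversed. At the brightest probe, inflorescence against leaf was not called with the 75th percentile of all probes (adjusted p = 0.0659) or with array medians (0.152), and root against leaf not with array medians (0.0582). MIR842 passed in no organ by its brightest probe, which was well above background on 2 root arrays and nowhere else, while its probe 2 was detected on all 3 root arrays and on no other. The leaf pattern of MIR846 therefore rests on 1 of 3 probes, and which transcript each probe reads was not tested.

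**Figure D4:**
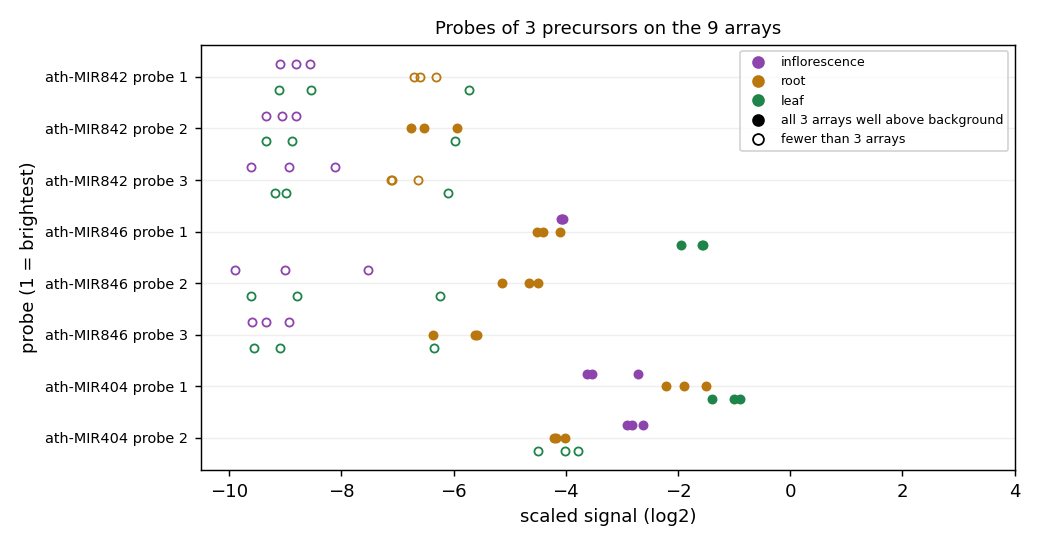
Scaled log2 signal of the single probes of MIR842, MIR846 and MIR404 on the 9 arrays (probe 1 is the brightest; 1 point per array; filled where all 3 arrays of the organ were well above background). At MIR846 probe 1 leaf lies highest, but at its probes 2 and 3 only root is filled, as at MIR842 probe 2; at MIR404 leaf is highest at probe 1 and inflorescence at probe 2.

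Immune receptor genes are known targets of miR472, which acts on receptors of the coiled-coil class, and of miR825, for which receptors of the TIR class have been reported. MIR825 had -6.31, -6.21 and -6.02 in inflorescence, -8.85, -9.30 and -9.55 in root, and -3.39, -3.70 and -3.37 in leaf. The 3 organs were fully separate, with leaf highest, and no root array was well above background. It was 6.49-fold lower in inflorescence than in leaf (-2.70 ± 0.22, adjusted p = 9.7e-05; 0.0624 with array medians) and lower in root than in leaf by at least 13.7-fold (-5.75 ± 0.22, adjusted p = 8.49e-07). Inflorescence exceeded root by at least 2.11-fold (3.05 ± 0.22, adjusted p = 3.33e-05). No call of MIR825 held after normexp correction or with all lower signals raised to a common floor. MIR472 averaged -6.06 ± 0.93 in inflorescence, -5.80 ± 0.91 in root and -5.32 ± 0.51 in leaf (SD, n = 3 each) and was called in no comparison.

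For the 9 remaining called members no target is named here. MIR776 was detected in inflorescence alone, with -4.24, -4.44 and -4.63, against -9.23, -9.64 and -9.84 in root and -8.95, -6.36 and -9.76 in leaf. Inflorescence was above all other arrays, over leaf by at least 3.23-fold (3.92 ± 0.78, adjusted p = 0.00833; at least 6.66-fold without leaf replicate 2) and over root by at least 7.08-fold (5.13 ± 0.78, adjusted p = 0.00169). MIR776 has only 1 probe. Neither of its calls held after normexp correction or with all lower signals raised to a common floor. MIR833 had -3.58, -3.65 and -3.88 in inflorescence, -6.48, -5.61 and -6.14 in root, and -4.78, -4.97 and -5.22 in leaf, without overlap between organs. Inflorescence was 2.44-fold higher than leaf (1.29 ± 0.26, adjusted p = 0.00828) and 5.18-fold higher than root (2.37 ± 0.26, adjusted p = 0.000273). Its difference in root against leaf (-1.09 ± 0.26, adjusted p = 0.0141) was lost without leaf replicate 1 (-0.98, adjusted p = 0.0542), root replicate 1 (-0.88) or root replicate 3 (adjusted p = 0.0958), and was -0.92 on the slide of replicate 3. It was also lost with the 75th percentile of all probes, array medians and quantile normalization (adjusted p = 0.368, 0.753 and 0.112). The call of MIR833 in inflorescence against leaf was lost with that percentile, array medians and the mean of all probes (adjusted p = 0.177, 0.102 and 0.107), and the difference was -0.0591 after normexp correction.

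MIR841 had -7.56, -9.31 and -9.82 in inflorescence, -5.75, -6.58 and -7.31 in root, and -2.38, -2.59 and -2.62 in leaf. Leaf was highest and no inflorescence array was well above background. It was lower in inflorescence than in leaf by at least 25.5-fold (-6.37 ± 0.62, adjusted p = 0.000215) and 16.2-fold lower in root than in leaf (-4.02 ± 0.62, adjusted p = 0.00173). It was also lower in inflorescence than in root by at least 1.57-fold (-2.35 ± 0.62, adjusted p = 0.0233), a call lost without inflorescence replicates 2 or 3 or root replicates 1 or 2 (-1.89 to -2.37, adjusted p = 0.0664 to 0.114). After normexp correction this difference was 0.19, with the sign reversed. Its probe 2 gave -5.34, -3.10 and -2.24 in these 3 comparisons, and its probe 3 was detected on no array. MIR841 overlaps HTA4, a gene of a histone H2A.

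MIR415, with 1 probe, was called in all 3 comparisons. It had -3.52, -3.79 and -4.13 in inflorescence, 1.55, 1.60 and 1.48 in root, and -0.80, -0.94 and -0.65 in leaf, and all 9 arrays were well above background. Root was highest and inflorescence lowest, without overlap. Inflorescence was 41.0-fold lower than root (-5.36 ± 0.19, adjusted p = 7.42e-07) and 8.09-fold lower than leaf (-3.02 ± 0.19, adjusted p = 2.67e-05), and root was 5.06-fold higher than leaf (2.34 ± 0.19, adjusted p = 5.79e-05). MIR415 belongs to the early computed entries, several of which are regarded as doubtful microRNAs, and overlaps the protein-coding gene AT1G74458. MIR848 averaged -4.31 ± 0.36 in inflorescence, -2.87 ± 0.20 in root and -4.50 ± 0.49 in leaf (SD, n = 3 each). Root arrays of MIR848 lay above all others, 3.10-fold over leaf (1.63 ± 0.30, adjusted p = 0.00435) and, in inflorescence against root, with a difference of -1.44 ± 0.30 (adjusted p = 0.0083) that was lost without inflorescence replicate 3 (-1.24, adjusted p = 0.0573). With the 75th percentile of all probes neither call of MIR848 held (adjusted p = 0.0841 in root against leaf and 0.207 in inflorescence against root), and the second was also lost with array medians (0.190) and quantile normalization (0.0525).

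MIR404 had -3.62, -3.53 and -2.71 in inflorescence, -2.22, -1.89 and -1.50 in root, and -0.90, -1.39 and -1.005 in leaf. At this probe inflorescence was lowest, 4.55-fold below leaf (-2.19 ± 0.31, adjusted p = 0.0016) and 2.67-fold below root (-1.42 ± 0.31, adjusted p = 0.0105). Without root replicate 3 the call against root was lost (-1.23, adjusted p = 0.0773). Neither call of MIR404 held with the 75th percentile of all probes (adjusted p = 0.199 against leaf and 0.401 against root), array medians (0.237 and 0.201) or the mean of its probes (0.356 and 0.995). Its other probe had -2.81, -2.92 and -2.63 in inflorescence, -4.18, -4.21 and -4.02 in root, and -4.02, -4.50 and -3.78 in leaf. There inflorescence was highest, with differences of 1.31 over leaf and 1.35 over root, so that MIR404 has no single organ pattern in these data.

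The remaining called members were close to the limit of detection or called once. MIR779 averaged -4.67 ± 0.34 in inflorescence, -3.78 ± 0.25 in root and -5.52 ± 0.35 in leaf (SD, n = 3 each) and was 3.34-fold higher in root than in leaf (1.74 ± 0.27, adjusted p = 0.00169), a difference of -0.28 after normexp correction. The other probe of MIR779 differed by 0.97 in root against leaf, under the 2-fold threshold. MIR771 averaged -5.95 ± 0.20, -9.05 ± 1.07 and -8.32 ± 1.82 in the same organs and was higher in inflorescence than in root by at least 2.49-fold (3.10 ± 0.91, adjusted p = 0.0364). Its call was lost without any 1 of the 3 inflorescence arrays or without root replicates 2 or 3 (2.74 to 3.21, adjusted p = 0.0920 to 0.177). Without leaf replicate 2 MIR771 was also called in inflorescence against leaf, at least 2.34-fold. MIR783 averaged -6.37 ± 0.42 in inflorescence, -9.14 ± 0.62 in root and -6.86 ± 0.45 in leaf. Root was lowest, by at least 1.86-fold under inflorescence (inflorescence against root 2.77 ± 0.39, adjusted p = 0.00118). Against leaf the difference was -2.28 ± 0.39 (root against leaf, adjusted p = 0.00302), but leaf was well above background on only 1 array. The calculation of the bound gave 1.32-fold there, or 1.11-fold without leaf replicate 2, and is no firm lower bound with leaf itself mostly undetected. The call of MIR783 in root against leaf was lost after quantile normalization (adjusted p = 0.280), with array medians (0.152) and with the mean of all probes (0.0847), and that in inflorescence against root with the mean of all probes (0.0685).

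Several of the brightest members showed little difference between organs. The highest means over 9 arrays were those of MIR860 (1.42), MIR834 (-0.08), MIR415 (-1.02), MIR822 (-1.60) and MIR413 (-1.77), an order of probe signals and not of transcript levels. MIR860 averaged 1.66 ± 0.16 in inflorescence, 1.52 ± 0.12 in root and 1.08 ± 0.06 in leaf. MIR834 averaged 0.23 ± 0.16, -0.23 ± 0.06 and -0.24 ± 0.25 in the same organs (SD, n = 3 each). MIR413 had the smallest range of organ means among the 11 members detected on all 9 arrays, 0.16. This rests on 1 of its 2 probes. The other, detected on 0 inflorescence, 2 root and 1 leaf arrays, differed by -0.73 in inflorescence against leaf and -0.72 in inflorescence against root. MIR835 and MIR840, also detected on all 9 arrays and called in no comparison, had ranges of 0.56 and 0.94. For MIR840 the differences in root against leaf (-0.94 ± 0.18, adjusted p = 0.0048) and in inflorescence against root (0.70 ± 0.18, adjusted p = 0.0196) passed the adjusted p and not the 2-fold threshold. All 5 of these evenly detected members overlap a protein-coding gene, MIR860 for instance FC1, a ferrochelatase gene.

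Overlap with an annotated gene was common among the members. By the RefSeq annotation of TAIR10.1, a protein-coding gene overlaps 30 members, another annotated RNA or pseudogene overlaps 7, and 39 have no overlap. Of the 30, 20 were tested, 8 were detected on all 9 arrays (15 on all 8 without leaf replicate 2) and 8 were called, with a median range between organ means of 0.86. Of the 39 without overlap, 16 were tested, 3 were detected on all 9 arrays (8 on all 8 without leaf replicate 2) and 10 were called, with a median range of 1.97. Of the 7 that overlap another RNA, 5 were tested and all 5 were called (MIR825, MIR826, MIR839, MIR850 and MIR863), with a median range of 5.75. The lowest organ of each of these 5 was detected on none of its arrays. As bounds, their log2 differences between highest and lowest organ were at least 3.25 (MIR826) to 6.96 (MIR850). These classes were set out after the signals had been seen and carry no test, and called here means in at least 1 comparison, as were 35.1% of all genes tested. The strand of the probes was not used here, so that a precursor and a gene overlapping it cannot be told apart by signal. The members that overlap DCL1 and PKL, MIR838 and MIR862, were each well above background on 1 array by their brightest probes, while DCL1 and PKL were so on all 9.

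**Figure D5:**
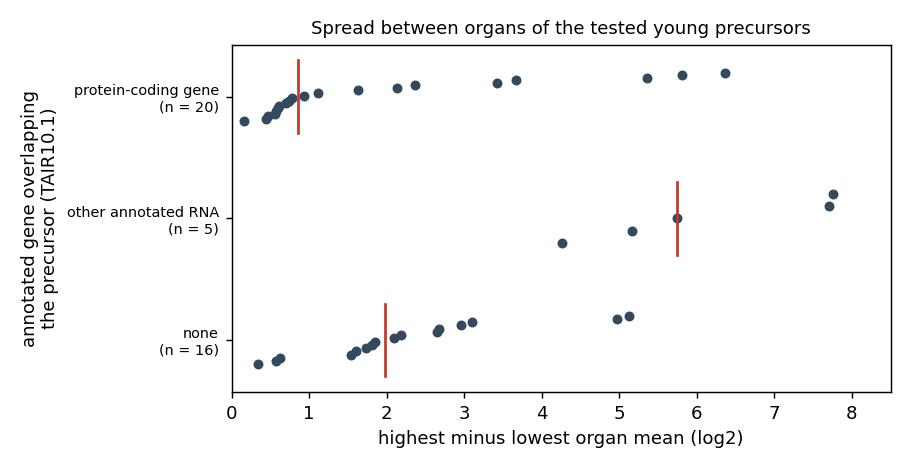
Highest minus lowest organ mean (log2) of 41 tested high-numbered precursors, 1 point per precursor, by the kind of annotated gene that overlaps them in TAIR10.1; vertical lines are medians (0.86 for protein-coding genes, 5.75 for other annotated RNA, 1.97 for none). Most precursors that overlap a protein-coding gene lie below 1, but MIR415 (5.36), MIR780 (5.81) and MIR841 (6.37) lie far above. The 5 that overlap another RNA lie above 4. The lowest organ of these 5 was detected on none of its arrays, so that their ranges run to signals not well above background.

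In order of naming, 8 of the 14 members from MIR400 to MIR472 were tested and 5 called in at least 1 comparison (35.1% of all genes). Of the 12 from MIR771 to MIR783, 8 were tested and 6 called. Of the 46 from MIR822 to MIR870, 25 were tested and 13 called. Of the 5 from MIR1886 upwards, only MIR2112 was tested, and it was not called. Of the other probes of called members, 22 of 24 had the sign of the brightest probe in root against leaf. The counts were 17 of 18 in inflorescence against leaf and 22 of 25 in inflorescence against root. The opposite sign came from probes 2 and 3 of MIR846 in root against leaf and probe 2 of MIR404 in inflorescence against leaf. In inflorescence against root it came from probe 2 of MIR404, probe 2 of MIR823 and probe 3 of MIR841. Of those detected on all 3 arrays of the brighter organ, 11 of 11, 7 of 7 and 18 of 19 had the same sign. Detection in the brighter organ itself favours that sign, so that these last counts say little about agreement.

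Genes of the small RNA machinery, listed for comparison, were mostly not on the array: 9 of 26 were, and all 9 were tested. In root against leaf 3 were called higher in root and 0 lower, beside 13.7% and 10.2% of all genes tested. For inflorescence against leaf 4 were higher in inflorescence and 0 lower, beside 8.43% and 9.37%. For inflorescence against root 2 were higher in inflorescence and 0 lower, beside 10.6% and 13.6%. DCL3, which makes heterochromatic small RNAs, differed by 1.84 ± 0.19 in inflorescence against leaf (adjusted p = 0.00029) and by 1.32 ± 0.19 in inflorescence against root (adjusted p = 0.00128). DCL1, which makes most microRNAs, differed by 0.60 ± 0.15, -0.29 ± 0.15 and, in root against leaf, 0.89 ± 0.15 (adjusted p = 0.0243, 0.233 and 0.00295), in each case under the 2-fold threshold.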

How the data were processed

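Per the file headers, spots were read by Agilent Feature Extraction (version 10.5.1.1), whose deposited processed signal is a background-subtracted, spatially detrended linear intensity, not normalised between arrays. The authors' deposited table of the whole series holds log2 values of a normalization not given in the sources (column medians 1.41 to 1.42). It served as an alternative, and its scale stays unknown. The flags for spots well above background are those of the deposited files. Control spots, 71 outlier spots and 9 promoter probes were left out. Saturated gene spots numbered 0. Scaling used the 75th percentile of 1345 common probes. Tests used limma 3.58.1 (R 4.3.3) with organ means over all 9 arrays, lmFit and eBayes, on 2124 genes, and every adjusted p in the text is limma's with Benjamini-Hochberg adjustment. The SE of a log2 difference is that of the fit, and the number of arrays limits the precision. The limma step was tested on simulated data with arrays drawn independently of each other. That run does not cover deviations shared between arrays. Same-numbered arrays of different organs deviated together (correlations 0.14 to 0.63 over 9 pairs). Differently numbered arrays of different organs correlated at 0.19 to 0.54 on the same slide and at -0.59 to -0.19 on different slides. Replicates 1 and 2 share a slide, so that number and slide coincide only for replicate 3. Normexp correction used the median spot signal with an offset of 50, since no mean signal column was used. Named were every called member, the 5 brightest, and up to 5 detected on all 9 arrays and called in none. Members, lists and alternatives were chosen with earlier results of these data known.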

Additional observations from a re-analysis of the deposited data

Results flagged for a closer look

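Probes other than the brightest were well above background on all 3 arrays of an organ for 3 members that entered no comparison. MIR842 probe 2 was so in root, with a mean of -6.41, MIR838 probe 2 in root, with a mean of -6.92, and MIR851 probe 2 in inflorescence, with a mean of -6.40. None of the 3 probes was well above background on any array of the other organs. These means lie close to the lowest signals well above background on their arrays (-6.81 to -7.62 in inflorescence and -6.91 to -7.54 in root).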

How the results depend on the processing

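As reported, 16 members were called in root against leaf, 14 in inflorescence against leaf and 19 in inflorescence against root, and the counts below keep this order. Normexp background correction left 6, 4 and 2 called, detection on all 9 arrays left 5, 3 and 5, and a common floor left 9, 8 and 8. Without a detection filter 11 were called in inflorescence against root. Leaving out 1 array gave 15 to 18, 14 to 16 and 14 to 20 called. Without leaf replicate 2 the calls gained were those of MIR839 and MIR861 in root against leaf and of MIR771 in inflorescence against leaf. With the replicate block 20, 16 and 21 were called, with slide as a block 21, 16 and 21, and each block kept all 49 called differences. The replicate block ended no call, and no count moved by over 1.5 times. Slide 1 alone gave 18, 13 and 18. Slide as a block without leaf replicate 2, an alternative chosen after seeing the data, gave 24, 17 and 22 and kept all 49. Of 49 called differences, 37 were no longer called after normexp, 4 of them with the sign reversed: MIR403 (-0.33) and MIR779 (-0.28) in root against leaf, MIR833 in inflorescence against leaf (-0.0591) and MIR841 in inflorescence against root (0.19). The mean of all probes reversed MIR846 in root against leaf (1.097). The 12 differences still called after normexp were those of MIR404, MIR415, MIR822, MIR841, MIR846, MIR850 and MIR863. The causes of these changes were not tested. Over 2 scalings, 37 (75th percentile of all probes) and 34 (array medians) of 49 calls were kept, and 45 after quantile normalization. Detection on all 3 arrays was counted as 34 members in inflorescence, 29 in root and 18 in leaf. On at least 2 of 3 arrays leaf gave 36, and with the flag for signals above background by significance root gave 45 and leaf 31. Leaving out 1 array gave 34 to 40 in inflorescence, 29 to 35 in root and 18 to 36 in leaf. Signal over background limits every fold against an organ without detection.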

Other observations

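Among the members that entered no comparison, single arrays held isolated high signals. MIR845b, from a family known to act on transposon transcripts, had -3.18 on inflorescence replicate 2 and -7.26 and -8.57 on the other inflorescence arrays, while root and leaf arrays lay between -5.93 and -9.21. MIR865 had -3.59 on leaf replicate 2 and -8.84 and -8.49 on the other leaf arrays. MIR420 was well above background on 2 of 3 arrays in each organ, with values of -5.30, -5.69 and -7.61 in inflorescence, -5.48, -5.60 and -9.76 in root, and -4.58, -5.66 and -6.65 in leaf. Its lowest array was replicate 3 in every organ, the array on the other slide. MIR869, a member that was tested, had -6.45, -6.59 and -9.68 in inflorescence, -4.43, -4.32 and -5.10 in root, and -6.31, -5.86 and -9.27 in leaf. Its difference of -2.96 ± 1.12 in inflorescence against root did not pass (adjusted p = 0.0929) and was called with either block.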
